A study of Mus musculus with 36 samples.

Results

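The transcripts of 8 mouse Polycomb genes were followed across 36 RNA-seq libraries of embryonic stem cells (ESCs) and epiblast-like cells (EpiLCs). The genes were Phc1, Phc2, Phc3, Scml2, Scmh1, Sfmbt1, L3mbtl2 and Kdm2b, selected by symbol from the Polycomb families whose proteins carry SAM or MBT domains, together with Kdm2b, out of 55401 genes counted. Levels and changes of these genes in the same libraries were known when they were picked, so the number of them that passed a test supports nothing about the group as a whole. The libraries fell into 12 groups of 3, and all cells were labelled as strain C57BL/6. J2WT was the matched wild type (WT) of J2KO, a Jarid2-null line, and PclWT was the matched WT of TKO, which lacks PHF1, MTF2 and PHF19 (the Polycomb-like proteins), and of QKO, which also lacks JARID2. These 5 lines were measured at both stages, and a further WT and a Pcgf2/4 KO line were measured only in EpiLCs. ESCs were grown in serum with LIF and 2 kinase inhibitors (3 µM CHIRON99021 and 1 µM PD0325901), and EpiLCs were collected after 2 days on fibronectin in activin A (20 ng/ml) and bFGF (12 ng/ml). The number of clones behind each line was not stated, nor was it said that replicates were grown separately, so the p-values measure only how far these libraries spread, and that spread may be technical.

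Polycomb proteins keep developmental genes silent through a pair of enzyme complexes, PRC2, which methylates histone H3 at lysine 27, and PRC1, which ubiquitinates histone H2A. Canonical PRC1 holds a CBX protein that reads the PRC2 mark and a Polyhomeotic protein, encoded by Phc1, Phc2 or Phc3, whose SAM domain polymerises and brings distant Polycomb sites together. SCML2 and SCMH1 are relatives of Drosophila Sex comb on midleg and join MBT domains, which bind methylated lysines, to a SAM domain. SFMBT1 is a further MBT and SAM protein, related to the Drosophila partner of Pleiohomeotic. L3MBTL2 is the MBT subunit of the variant PRC1 built on PCGF6, and KDM2B brings the variant PRC1 built on PCGF1 to CpG islands through a CXXC zinc finger that binds unmethylated CG dinucleotides.

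Each library held 6784578 to 18026492 counts in genes, with 15924615 to 18026492 in the J2WT and J2KO libraries and 6784578 to 11253158 in the rest. Levels are given as CPM (read counts relative to library size) scaled by TMM over the 36 libraries, as mean ± SD with n = 3, and as RPKM, the same CPM divided by the kilobases of a gene's merged exons, where genes are compared with each other. PclWT EpiLC replicate 1 stood apart from the other libraries of its group: 1805 and 2052 genes differed over 2-fold between it and the other 2 replicates, against 114 between those, so fold changes of the 8 genes that rest on it are given with and without it. Phf1 was at 0.123 to 0.595 CPM in the TKO and QKO groups against 7.8 and 8.06 CPM in PclWT, and Mtf2 was at 36.7 to 44.3 CPM against 223 and 419 CPM. Phf19 was low in PclWT, at 1.67 CPM in ESCs and 3.04 CPM in EpiLCs, and was still counted in TKO, at 1.25 and 2.43 CPM, and in QKO, at 0.48 and 0.99 CPM. Summed over the whole gene, Jarid2 was still counted in J2KO, at 411 CPM in ESCs against 457 CPM in J2WT and at 508 CPM against 769 CPM in EpiLCs. In QKO it was at 395 CPM against 512 CPM in PclWT ESCs and at 492 CPM against 386 CPM in EpiLCs. Pcgf2 and Bmi1 were counted in Pcgf2/4 KO at 64.6 and 23.0 CPM against 59.0 and 21.9 CPM in WT. Which exons were deleted is not given in the sources used here, so the gene counts of Jarid2, Phf19, Pcgf2 and Bmi1 do not check the labels. Summed over 8 genes of naive pluripotency, levels were 3841 to 6020 CPM in the ESC libraries and 272 to 1370 CPM in the EpiLC libraries, and over 6 formative genes they were 157 to 333 CPM and 952 to 4957 CPM. PclWT EpiLCs had the lowest formative sum of the EpiLC groups, 952 to 1121 CPM, against 3853 to 3923 CPM in J2WT EpiLCs. Markers of fibroblasts, primitive endoderm, trophoblast, mesendoderm and neuroectoderm summed to at most 26.0, 97.4, 36.9, 48.4 and 130 CPM in any library, with the highest sums of primitive endoderm and neuroectoderm genes in TKO EpiLCs, and 3 general pluripotency genes summed to 680 to 1980 CPM. In these bulk samples, fewer cells of a type and less RNA per cell cannot be told apart.

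Per kilobase of exon, Phc1 was the most abundant of the 8 transcripts in every group, at 65.6 to 215 RPKM. L3mbtl2 came second in 11 of the 12 groups, at 17.0 to 45.3 RPKM, and Kdm2b stood second in the remaining group, TKO EpiLCs, at 15.2 RPKM, just above L3mbtl2 at 14.8 RPKM. Phc3 stayed between 1.2 and 2.6 RPKM and was at the sixth place or lower throughout. Scml2 was the least abundant in 7 groups, among them J2WT ESCs at 0.634 RPKM, and the third most abundant in both J2KO groups, at 16.4 and 17.9 RPKM. On the log2 scale, the highest and lowest of the 12 group means were 1.17 to 2.23 apart for the other 7 genes and 5.49 apart for Scml2, a 45.0-fold span that was wider than that of 96.9% of expressed genes.

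**Figure D1:**
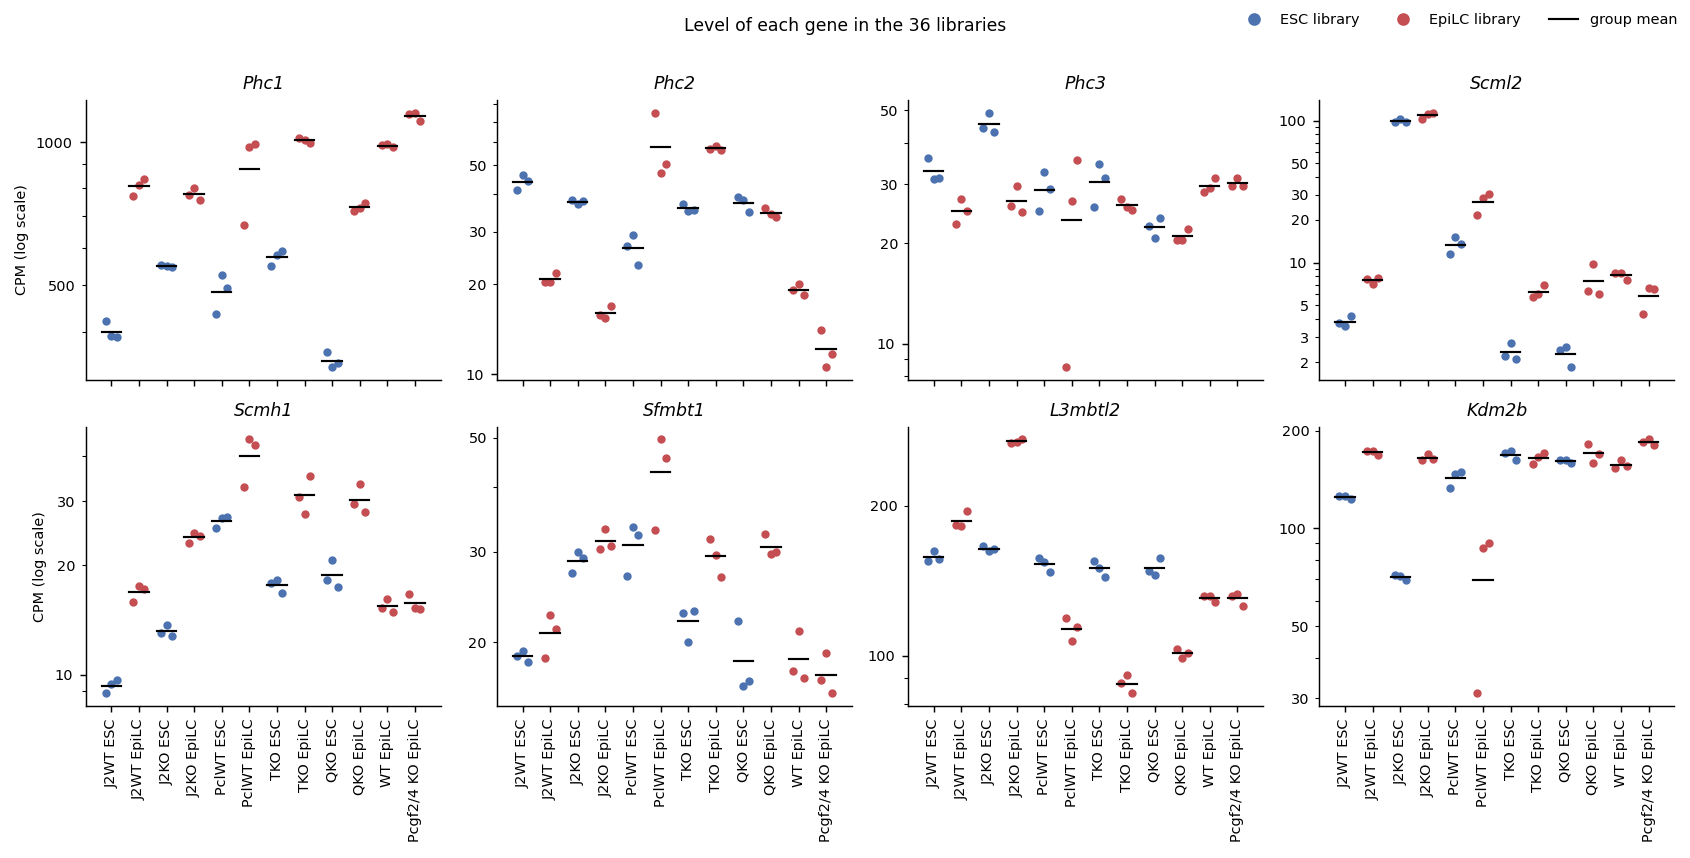
CPM of each gene on a log axis in every library of the 12 groups, with blue points for ESC libraries, red points for EpiLC libraries and a black line at each group mean (n = 3). Scml2 lies near 100 CPM in the 6 J2KO libraries and at or under 30.2 CPM in all others. The first PclWT EpiLC library lies above the other 2 of its group for Phc2 and L3mbtl2 and below them for the remaining genes.

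Phc1 lies on chromosome 6 (GRCm38, 122317731 to 122340561, minus strand). In J2WT, the 3 ESC libraries were at 420, 391 and 389 CPM and the 3 EpiLC libraries at 773, 814 and 838 CPM, with no overlap, a log2 fold change of 1.03 ± 0.04 (SE; edgeR quasi-likelihood test, Benjamini-Hochberg adjusted p = 3.82e-18). PclWT went from 436, 525 and 493 CPM to 670, 977 and 992 CPM, where the low first EpiLC library is the one that stood apart, and the log2 fold change was 0.83 ± 0.18 (adjusted p = 0.0129 by edgeR). Without that library it was 1.02 ± 0.06, and without PclWT ESC replicate 1 or 3 the call was lost (adjusted p up to 0.066 by edgeR). The difference between the Phc1 stage effects of the 2 WT lines was -0.18 ± 0.19 and did not pass the test (adjusted p = 0.487 by edgeR), and without that library it was -0.00 ± 0.07. Phc1 was therefore higher in EpiLCs of both lines, and the highest ESC group mean of all, 573 ± 20.6 CPM in TKO, lay under the lowest EpiLC group mean, 730 ± 13.2 CPM in QKO.

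Among ESC groups, Phc1 was lowest in QKO, at 362, 337 and 343 CPM, and these libraries did not overlap those of any other group. Against PclWT ESCs, QKO ESCs were lower by a log2 fold change of -0.47 ± 0.06 (edgeR adjusted p = 1.99e-06), whereas TKO ESCs were higher by 0.22 ± 0.06 (edgeR adjusted p = 0.00457). Set directly against TKO, QKO held less Phc1 at both stages, with log2 fold changes of -0.73 ± 0.05 in ESCs (edgeR adjusted p = 2.66e-10) and -0.49 ± 0.03 in EpiLCs (edgeR adjusted p = 1e-10). In the line that lacks only JARID2, the direction in ESCs was the opposite: J2KO libraries were at 553, 549 and 546 CPM, above all J2WT ESC libraries, a log2 fold change of 0.47 ± 0.03 (edgeR adjusted p = 9.61e-11). In EpiLCs the J2KO and J2WT libraries overlapped, with a log2 fold change of -0.04 and an interval of -0.09 to 0.02. The highest Phc1 level of the series was in Pcgf2/4 KO EpiLCs, at 1146, 1153 and 1110 CPM against 987, 991 and 976 CPM in their WT, a log2 fold change of 0.23 ± 0.04 (edgeR adjusted p = 4.76e-07).

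Phc2 (chromosome 4, 128654702 to 128752881, plus strand) changed in opposite directions between stages in the 2 WT lines. In J2WT it fell from 41.3, 46.6 and 44.5 CPM in ESCs to 20.4, 20.4 and 21.8 CPM in EpiLCs, a log2 fold change of -1.07 ± 0.06 (edgeR adjusted p = 6.22e-14). In PclWT it rose from 26.9, 29.2 and 23.3 CPM to 74.9, 47.3 and 50.6 CPM, a log2 fold change of 1.10 ± 0.20 (edgeR adjusted p = 0.0076). The libraries of the 2 stages did not overlap in either line, and the difference between the stage effects, 2.18 ± 0.22, passed its own test (edgeR adjusted p = 1.38e-05). Without PclWT EpiLC replicate 1, whose Phc2 level was the highest of all 36 libraries, the rise in PclWT was 0.88 ± 0.09 and the difference between the lines 1.96 ± 0.11, and both passed. The line and everything that differs between the lines, such as depth and laboratory of origin, cannot be told apart here, and the lines also differed in the formative genes given above.

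Against the matched WT, Phc2 was lower in 4 of the 7 mutant groups and higher in 2. Pcgf2/4 KO EpiLCs had the lowest level, at 14.1, 10.6 and 11.7 CPM against 19.1, 20.0 and 18.5 CPM in WT, a log2 fold change of -0.64 ± 0.10 (edgeR adjusted p = 1.2e-06). J2KO was lower than J2WT in ESCs by -0.21 ± 0.05 (edgeR adjusted p = 0.00169, and 0.0635 in a model of all 36 libraries) and in EpiLCs by -0.36 ± 0.07 (edgeR adjusted p = 8.33e-05). QKO EpiLCs, at 36.1, 34.4 and 33.7 CPM, lay below all PclWT EpiLC libraries, with a log2 fold change of -0.75 ± 0.19 (edgeR adjusted p = 0.0236) that was -0.53 ± 0.07 without PclWT EpiLC replicate 1 and missed the threshold without any 1 of the QKO EpiLC libraries (adjusted p up to 0.0958 by edgeR). They also lay below TKO EpiLCs, at 56.8, 58.1 and 56.3 CPM, by -0.74 ± 0.06 (edgeR adjusted p = 8.09e-10). In ESCs both mutants were instead above PclWT, TKO by 0.41 ± 0.09 (edgeR adjusted p = 0.000295) and QKO by 0.51 ± 0.08 (edgeR adjusted p = 5.44e-05), and the change of the QKO effect between stages was -1.22 ± 0.22 (edgeR adjusted p = 0.00342), or -1.03 ± 0.11 without PclWT EpiLC replicate 1. TKO and QKO were both set against the same PclWT libraries, so their 2 comparisons are not independent.

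Phc3 (chromosome 3, 30899371 to 30969415, minus strand) moved least. It was 36.1, 31.2 and 31.3 CPM in J2WT ESCs and 22.8, 27.1 and 24.9 CPM in J2WT EpiLCs, a log2 fold change of -0.39 ± 0.07 (edgeR adjusted p = 2.17e-05). In PclWT EpiLCs the libraries spread from 8.53 to 35.4 CPM, the lowest being replicate 1, and the stage effect of -0.32 ± 0.45 did not pass the test, nor did that of 0.11 ± 0.12 without replicate 1. J2KO ESCs held the highest level, 44.4, 49.1 and 43.0 CPM, a log2 fold change of 0.48 ± 0.06 over J2WT ESCs (edgeR adjusted p = 1.09e-06). QKO was below TKO in ESCs by -0.45 ± 0.10 (edgeR adjusted p = 0.00175) and in EpiLCs by -0.33 ± 0.08 (edgeR adjusted p = 0.00245). In a model of all 36 libraries, Phc3 no longer passed between stages in J2WT (edgeR adjusted p = 0.0688) or between QKO and TKO in ESCs and EpiLCs (edgeR adjusted p = 0.141 and 0.317). Phc1 was thus lower in QKO than in TKO at each stage, as was Phc3 in the fits on 6 libraries. Phc2 was lower in EpiLCs, and its ESC difference of 0.05 had an interval of -0.08 to 0.19; whether the 2 stages differ in this was not tested.

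As a share of the summed RPKM of the 3 Polyhomeotic genes in the same library, Phc1 made up 90.3% to 98.4% of the group means. The share of Phc2 was 7.48% ± 0.69 in J2WT ESCs and 1.88% ± 0.0521 in J2WT EpiLCs, with no overlap. In PclWT the stages overlapped, at 3.88% ± 0.495 in ESCs and 4.95% ± 2.4 in EpiLCs, where replicate 1 was at 7.71%. Phc2 made up 7.36% ± 0.383 in QKO ESCs, where Phc1 was lower and Phc2 higher than in PclWT ESCs. Its smallest share was 0.788% ± 0.115, in Pcgf2/4 KO EpiLCs. Phc3 held 1.51% to 2.33% in the ESC groups and 0.726% to 1.01% in the EpiLC groups. The shares are descriptions without a test and shift with the length used: with the longest transcript, Phc2 ranged from 1.11% to 10.3% and Phc3 from 0.902% to 2.88%.

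**Figure D2:**
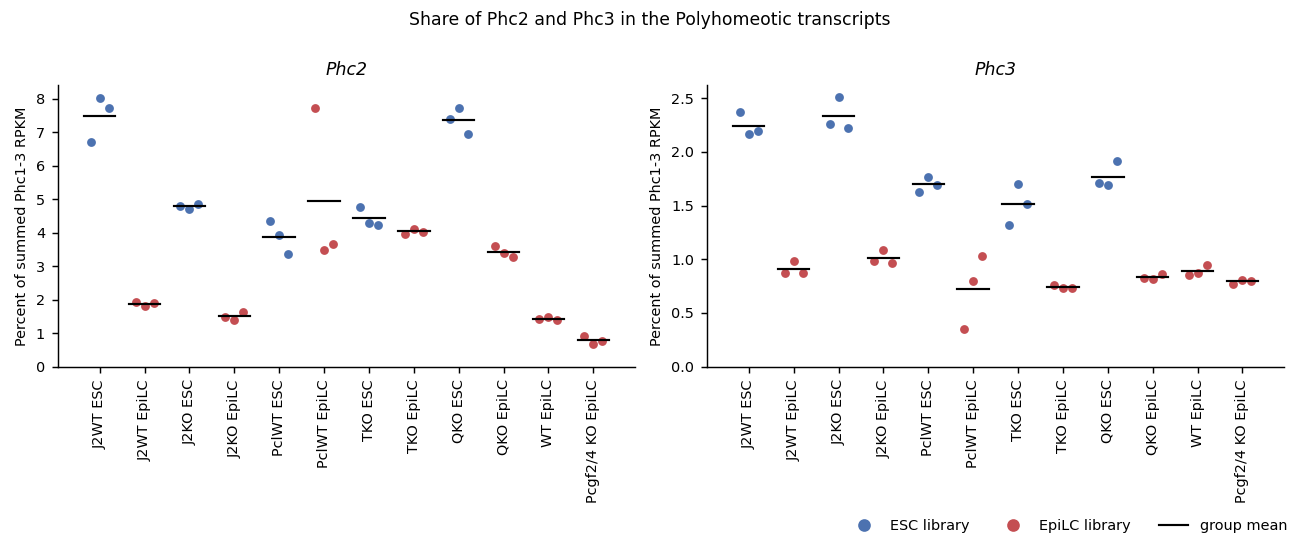
Phc2 (left) and Phc3 (right) as a percent of the summed RPKM of Phc1, Phc2 and Phc3 in each library, with blue points for ESCs, red points for EpiLCs and a black line at the mean of 3 libraries. Phc2 runs from 0.788% in Pcgf2/4 KO EpiLCs to 7.48% in J2WT ESCs, and in PclWT EpiLCs replicate 1 alone lies at 7.71%.

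Scml2, on chromosome X (161117193 to 161258213, plus strand), had the largest differences. SCML2 is best known from the male germline, where it keeps somatic genes off in spermatogonia. J2WT ESCs held 3.74, 3.61 and 4.22 CPM, and J2KO ESCs held 98.2, 103 and 98.1 CPM, a 26.0-fold difference (log2 fold change 4.70 ± 0.07, edgeR adjusted p = 6.81e-21). J2WT EpiLCs held 7.62, 7.12 and 7.85 CPM, and J2KO EpiLCs held 102, 112 and 113 CPM, a 14.7-fold difference (log2 fold change 3.87 ± 0.06, edgeR adjusted p = 2.25e-26). Every J2KO library was above every other library of the series. Since Scml2 rose between stages in J2WT by 0.97 ± 0.12, the J2KO effect was smaller in EpiLCs than in ESCs by -0.85 ± 0.13 (edgeR adjusted p = 2.95e-06).

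In the lines set against PclWT the order was the reverse. PclWT held 11.5, 15.2 and 13.5 CPM in ESCs and 21.5, 28.6 and 30.2 CPM in EpiLCs, more than J2WT at each stage. Its stage effect was 0.97 ± 0.18, or 1.14 ± 0.11 without EpiLC replicate 1. TKO held 2.22, 2.71 and 2.09 CPM in ESCs and 5.70, 5.98 and 6.95 CPM in EpiLCs, log2 fold changes of -2.54 ± 0.17 (edgeR adjusted p = 2.82e-10) and -2.15 ± 0.17 (edgeR adjusted p = 0.000432). QKO held 2.43, 2.54 and 1.85 CPM in ESCs and 6.28, 9.84 and 6.07 CPM in EpiLCs, log2 fold changes of -2.55 ± 0.18 (edgeR adjusted p = 2.05e-09) and -1.88 ± 0.23 (edgeR adjusted p = 0.00149). Without PclWT EpiLC replicate 1 the EpiLC values were -2.28 ± 0.12 in TKO and -2.04 ± 0.14 in QKO. Thus both lines without the Polycomb-like proteins lay below PclWT with no overlap at either stage. PclWT was itself the highest WT in EpiLCs, with J2WT at 7.53 ± 0.376 CPM and the further WT at 8.15 ± 0.527 CPM. There QKO libraries overlapped those of J2WT and the further WT, and TKO libraries lay just below them. In ESCs, TKO and QKO libraries also lay below those of J2WT, at 3.86 ± 0.322 CPM. These differences from other WT lines were not tested. Between QKO and TKO, Scml2 did not pass the test, with intervals of -0.53 to 0.42 in ESCs and -0.13 to 0.58 in EpiLCs. The low Scml2 levels rest on few reads, 17 to 25 per library in TKO and QKO ESCs, against 1478 to 1662 in J2KO ESCs. Pcgf2/4 KO EpiLCs were below WT EpiLCs by -0.46 ± 0.15 (edgeR adjusted p = 0.00991), a call that was lost by DESeq2 (adjusted p = 0.0558) and without Pcgf2/4 KO replicate 1 (edgeR adjusted p = 0.129).

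The effect of losing JARID2 on Scml2 differed between the 2 backgrounds. The contrast of QKO against TKO minus that of J2KO against J2WT was -4.73 ± 0.26 in ESCs (edgeR adjusted p = 2.48e-14) and -3.63 ± 0.20 in EpiLCs (edgeR adjusted p = 4.62e-15), the sign meaning a lower value in the lines that lack the Polycomb-like proteins. The same contrast passed for 7 of the 8 genes in ESCs, where 61.2% of all genes passed, and for 7 in EpiLCs, where 53.5% did, so passing was common among all genes. Background and line cannot be told apart in this contrast.

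Other genes near Scml2 went in both directions. Of the 4 tested genes nearest on each side, up to 1521 kb away, 4 were higher and 3 lower in J2KO ESCs (36.7% and 34.1% of all genes). Their median log2 fold change was 0.10. Nhs, a regulator of actin remodelling 575 kb beyond Scml2, was at 3.15 ± 0.33 in J2KO ESCs (edgeR adjusted p = 4.91e-08) and at 0.51 ± 0.14 in J2KO EpiLCs. In TKO and QKO, where Scml2 was lower, Nhs was at -0.75 ± 0.24 and -1.25 ± 0.27 in ESCs but at 2.61 ± 0.27 and 1.73 ± 0.27 in EpiLCs. Adgrg2, 619 kb before Scml2, was at 1.00 ± 0.30 in J2KO ESCs (edgeR adjusted p = 0.00496). Gm15262, 29.2 kb beyond Scml2, passed the filter in EpiLCs only, at 1.61 ± 0.26 in J2KO (edgeR adjusted p = 4.17e-06). It was at -1.13 ± 0.21 in TKO and -2.53 ± 0.35 in QKO EpiLCs. These genes were chosen after their values were seen.

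The 250 bases before the start sites of Phc1, the most abundant gene, and Scml2, the most variable one, are shown because KDM2B, itself a gene of the group, binds unmethylated CG. They come from RefSeq on GRCm38.p6 and are read 5′ to 3′ on the gene's strand, with each CG in capitals. All 8 genes had at least 1 such window. Both windows lie inside their genes as given above. That of Phc1 stands before a start 3 bases from 1 of its 14 annotated start sites, and that of Scml2 before 1 of its 6. The use of these starts was not measured.
Phc1, chr6:122340228-122340477, minus strand: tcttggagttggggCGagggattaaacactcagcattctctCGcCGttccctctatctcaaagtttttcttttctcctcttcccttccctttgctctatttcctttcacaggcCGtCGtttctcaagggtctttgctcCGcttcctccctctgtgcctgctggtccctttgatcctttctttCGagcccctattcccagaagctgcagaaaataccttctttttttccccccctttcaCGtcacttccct
Scml2, chrX:161162500-161162749, plus strand: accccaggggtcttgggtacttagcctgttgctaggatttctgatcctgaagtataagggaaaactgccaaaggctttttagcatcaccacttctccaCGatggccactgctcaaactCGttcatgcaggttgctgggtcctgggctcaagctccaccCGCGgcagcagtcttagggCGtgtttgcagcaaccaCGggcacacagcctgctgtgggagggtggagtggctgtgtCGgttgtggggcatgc
The Phc1 window held 8 CG and the Scml2 window 7, near the median of 6 over 32851 windows, and 43.0% and 46.3% of windows held as many or more. Sfmbt1 had 20, L3mbtl2 13 and Phc3 12 CG. Genes with several starts were mixed, from 1 to 34 CG for Phc2, from 12 to 38 for Kdm2b and from 0 to 45 for Scmh1. The letters CACGTG, the E-box of MAX and MGA in the PCGF6 complex and the same on both strands, were in 1 window each of Phc2, Phc3 and Sfmbt1 and in 6.02% of all windows.

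Scmh1 (chromosome 4, 120405281 to 120530186, plus strand) rose between stages in both WT lines. It went from 8.90, 9.42 and 9.70 CPM to 15.9, 17.5 and 17.2 CPM in J2WT, a log2 fold change of 0.86 ± 0.08 (edgeR adjusted p = 1.26e-09), and from 25.4, 27.0 and 27.1 CPM to 32.8, 44.4 and 42.9 CPM in PclWT, a log2 fold change of 0.57 ± 0.14 (edgeR adjusted p = 0.024). The PclWT change was 0.72 ± 0.08 without EpiLC replicate 1 and missed the threshold without any 1 of the other 5 libraries (edgeR adjusted p up to 0.102). J2KO was above J2WT by 0.51 ± 0.09 in ESCs (edgeR adjusted p = 2.75e-05) and 0.52 ± 0.07 in EpiLCs (edgeR adjusted p = 1.53e-07). TKO and QKO ESCs were below PclWT ESCs, by -0.61 ± 0.09 (edgeR adjusted p = 5.07e-06) and -0.49 ± 0.09 (edgeR adjusted p = 8.68e-05). In EpiLCs the TKO and QKO differences of -0.40 ± 0.15 and -0.42 ± 0.15 did not pass, and without PclWT EpiLC replicate 1 both passed, at -0.51 ± 0.08 and -0.56 ± 0.08.

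Sfmbt1 (chromosome 14, 30714849 to 30822721, plus strand) showed the same signs in J2KO, TKO and QKO. J2KO was above J2WT by 0.63 ± 0.06 in ESCs (edgeR adjusted p = 2.8e-08), with 27.3, 29.9 and 29.1 CPM against 18.8, 19.2 and 18.3 CPM, and by 0.62 ± 0.07 in EpiLCs (edgeR adjusted p = 6.59e-09). TKO and QKO ESCs were below PclWT ESCs by -0.52 ± 0.09 (edgeR adjusted p = 9.66e-05) and -0.73 ± 0.11 (edgeR adjusted p = 2.08e-05). In EpiLCs, TKO was lower by -0.58 ± 0.17 (edgeR adjusted p = 0.0379), which missed the threshold without any 1 of the other 5 libraries and was -0.70 ± 0.08 without PclWT EpiLC replicate 1, and the QKO difference of -0.49 ± 0.17 did not pass (edgeR adjusted p = 0.0602) but did so without that replicate, at -0.66 ± 0.07. Its level did not pass the test between stages in either WT line, at 0.16 ± 0.08 in J2WT (edgeR adjusted p = 0.0582) and 0.45 ± 0.18 in PclWT (edgeR adjusted p = 0.109). Without PclWT EpiLC replicate 1 the PclWT stage effect of Sfmbt1 was 0.63 ± 0.09 and passed (edgeR adjusted p = 1.83e-05). Scml2, Scmh1 and Sfmbt1 were therefore each higher in J2KO than in J2WT at both stages, and each lower in TKO and QKO than in PclWT in ESCs.

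L3mbtl2 (chromosome 15, 81663889 to 81688315, plus strand) had steady ESC levels, with group means from 150 to 164 CPM, and diverged in EpiLCs. J2WT went from 155, 162 and 156 CPM to 183, 182 and 195 CPM, a log2 fold change of 0.25 ± 0.04 (edgeR adjusted p = 2.25e-06). PclWT went the other way, from 157, 154 and 147 CPM to 119, 107 and 114 CPM, a log2 fold change of -0.46 ± 0.10 (edgeR adjusted p = 0.0123) that was -0.47 ± 0.06 without EpiLC replicate 1 and missed the threshold without PclWT EpiLC replicate 2 or any 1 of the ESC libraries (edgeR adjusted p up to 0.0684). The stage effects of the lines differed by -0.70 ± 0.09 (edgeR adjusted p = 0.000118), or -0.72 ± 0.07 without EpiLC replicate 1. J2KO EpiLCs held 267, 269 and 272 CPM, above all other libraries, a log2 fold change of 0.55 ± 0.03 over J2WT EpiLCs (edgeR adjusted p = 1.1e-14), whereas in ESCs the interval of the J2KO difference ran from -0.00 to 0.13. TKO EpiLCs, at 88.1, 91.4 and 84.0 CPM, were below PclWT EpiLCs by -0.41 ± 0.10 (edgeR adjusted p = 0.024) and below QKO EpiLCs, which exceeded them by 0.18 ± 0.04 (edgeR adjusted p = 0.00197). The TKO difference was -0.35 ± 0.05 without PclWT EpiLC replicate 1 and missed the threshold without any 1 of the other 5 libraries and with no filter on low counts (edgeR adjusted p = 0.0729). The QKO difference of L3mbtl2 in EpiLCs, -0.18 ± 0.10, did not pass (edgeR adjusted p = 0.212). Without PclWT EpiLC replicate 1 it was -0.16 ± 0.05 and passed (edgeR adjusted p = 0.00443). Chadl, on the opposite strand, shares 17.21% of the exon bases of L3mbtl2. Reads there cannot be assigned by strand, and reads in several genes are left out of the gene counts. The RPKM of L3mbtl2 is still divided by all its merged exons.

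Kdm2b (chromosome 5, 122870665 to 122989823, minus strand) was lower in J2KO ESCs, at 71.9, 71.3 and 69.5 CPM, than in J2WT ESCs, at 126, 126 and 123 CPM, a log2 fold change of -0.81 ± 0.04 (edgeR adjusted p = 1.95e-13). In EpiLCs the 2 lines overlapped, at 165 ± 3.62 and 171 ± 2.48 CPM, and the change of the J2KO effect between stages was 0.75 ± 0.05 (edgeR adjusted p = 6.42e-14). J2WT rose between stages by 0.47 ± 0.04 (edgeR adjusted p = 2.52e-11). In PclWT, the ESC libraries were at 133, 147 and 149 CPM and the EpiLC libraries at 31.1, 86.9 and 90.1 CPM, the first of them being the one that stood apart. These did not overlap, but the log2 fold change of -1.07 ± 0.37 did not pass (edgeR adjusted p = 0.069). With the replicate number as a block it was -1.20 ± 0.28 and passed (edgeR adjusted p = 0.0221), and without PclWT EpiLC replicate 1 it was -0.69 ± 0.07 and passed (edgeR adjusted p = 1.61e-07). TKO EpiLCs, at 158, 166 and 171 CPM, and QKO EpiLCs, at 182, 159 and 170 CPM, were above PclWT EpiLCs by 1.21 ± 0.36 (edgeR adjusted p = 0.0394) and 1.28 ± 0.37 (edgeR adjusted p = 0.0339), and by 0.88 ± 0.05 and 0.92 ± 0.06 without replicate 1. With all 3 PclWT libraries these calls were lost when any 1 TKO or any 1 QKO library was left out, and the TKO call also without PclWT EpiLC replicate 2. The control, PclWT EpiLCs, had the lowest Kdm2b mean of the 12 groups, 69.3 ± 33.2 CPM. TKO and QKO EpiLCs lay near the other WT EpiLCs, at 171 ± 2.48 CPM in J2WT and 157 ± 4.74 CPM in the further WT. Whether they differ from those lines was not tested. The stage difference between the WT lines was -1.52 ± 0.40 (edgeR adjusted p = 0.00925), or -1.16 ± 0.07 without PclWT EpiLC replicate 1. Rnf34 on the opposite strand shares 5.769% of the exon bases of Kdm2b.

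All 8 genes passed the filter on low counts in every comparison. Between stages in J2WT, 5 of the 8 were higher, where 40.0% of all genes tested were, 2 were lower, where 42.3% were, and 2 of these changes exceeded 2-fold, where 30.2% did. In PclWT, 4 were higher (15.4% of all genes), 1 was lower (14.7%) and 1 exceeded 2-fold (15.2%). Phc1, Scml2 and Scmh1 were higher in EpiLCs of both lines, and Phc2 and L3mbtl2 had opposite signs. The test of the difference between the lines passed for 3 of the 8, Phc2, L3mbtl2 and Kdm2b, where 42.8% of all genes passed. Without PclWT EpiLC replicate 1, 7 passed between stages in PclWT and 5 passed in the test of the difference, with Phc3 at 0.50 ± 0.15 and Sfmbt1 at 0.47 ± 0.12 added. The share of all genes that passed without that library is not given here, so these counts are not set against all genes.

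**Figure D3:**
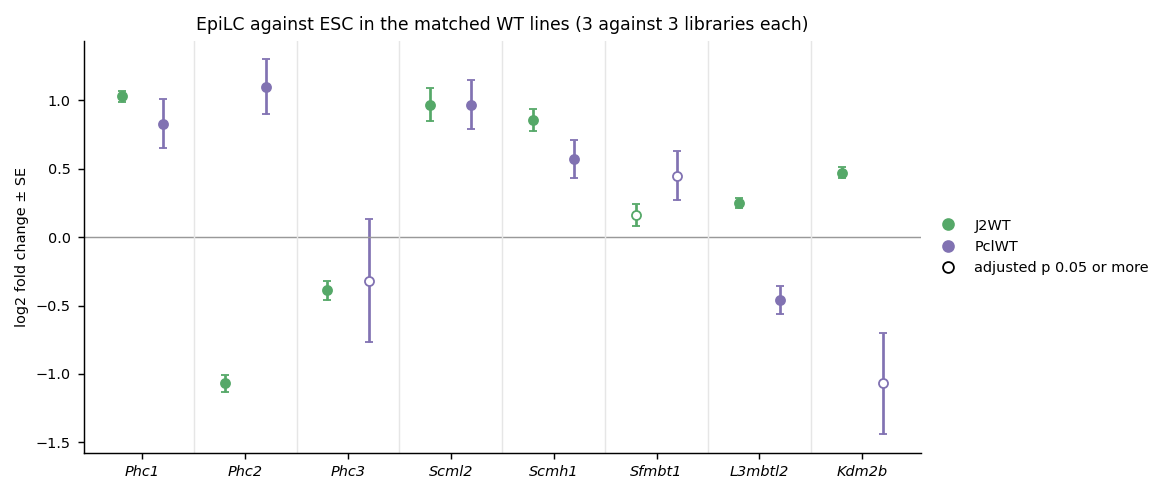
Log2 fold change of EpiLCs against ESCs ± SE for each gene in J2WT (green) and PclWT (purple), with filled points for an adjusted p under 0.05 and open points otherwise. Phc2 is at -1.07 in J2WT and 1.10 in PclWT, and Scml2 is at 0.97 in both.

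In the mutants the counts were as follows. In J2KO ESCs, 5 were higher (36.7% of all genes), 2 lower (34.1%) and 1, Scml2, over 2-fold (13.3%). J2KO EpiLCs had 4 higher (34.7%), 1 lower (30.5%) and 1, again Scml2, over 2-fold (8.85%). TKO ESCs had 3 higher (33.9%), 3 lower (32.9%) and 1 over 2-fold (13.7%), which was Scml2. The counts in TKO EpiLCs were 1 higher (15.9%), 3 lower (17.6%) and 2 over 2-fold (14.1%), Scml2 and Kdm2b. Of the genes in QKO ESCs, 2 were higher (36.5%), 5 lower (33.4%) and 1 over 2-fold (13.8%), Scml2. QKO EpiLCs had 1 higher (16.5%), 2 lower (16.2%) and 2 over 2-fold (13.7%), Scml2 and Kdm2b. Without PclWT EpiLC replicate 1, 7 genes passed in TKO EpiLCs and all 8 in QKO EpiLCs, and leaving out another library left as few as 1. The shares above hold for the full fits only, and the share of all genes without that replicate is not given here. In TKO EpiLCs, leaving out PclWT EpiLC replicate 1 turned Phc2 from -0.05 ± 0.19 to 0.21 ± 0.06 (edgeR adjusted p = 0.00711) and Phc3 from 0.10 ± 0.43 to -0.27 ± 0.10 (edgeR adjusted p = 0.0243). In QKO EpiLCs it took Phc1 from -0.28 ± 0.17 to -0.46 ± 0.04 and Phc3 from -0.18 ± 0.43 to -0.59 ± 0.11, both then past the threshold.

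Set against TKO, QKO ESCs had 0 genes higher (19.5% of all genes) and 2 lower (22.5%), with 0 over 2-fold (4.59%). In EpiLCs, QKO had 1 higher (23.3%) and 3 lower (22.0%) than TKO, with 0 over 2-fold (4.82%). Pcgf2/4 KO EpiLCs had 2 higher (29.6%) and 2 lower (27.4%) than WT, and again 0 over 2-fold (5.8%). By edgeR's test, 2 of the 8 passed between QKO and TKO in ESCs and 4 in EpiLCs before the 2-fold limit. Over the 7 comparisons of a mutant with its matched WT, median log2 fold changes of the 8 genes ran from -0.42 in QKO ESCs to 0.47 in J2KO ESCs, beside medians of 0.02 and 0.01 over all genes tested.

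**Figure D4:**
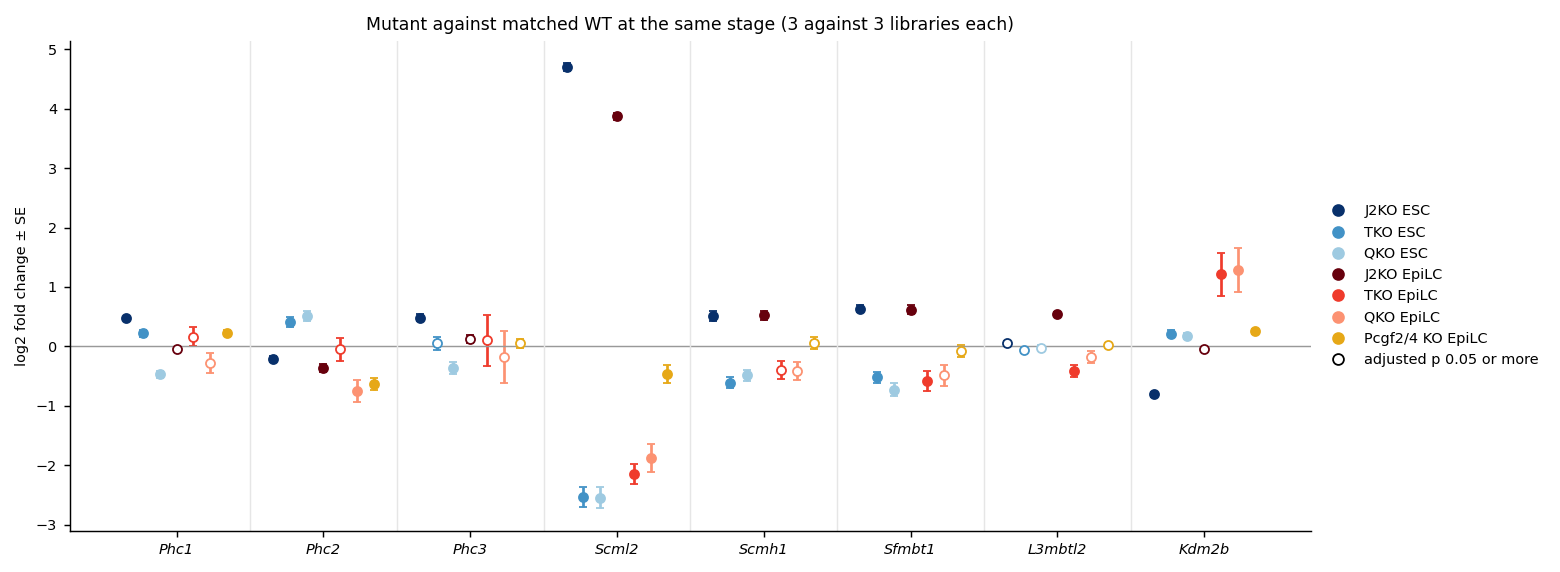
Log2 fold change of each mutant against its matched WT ± SE for the 8 genes, in blue tones for ESCs and red or yellow tones for EpiLCs, with open points where the adjusted p was 0.05 or more. Scml2 lies at 4.70 and 3.87 in J2KO and between -2.55 and -1.88 in TKO and QKO, while all other points lie between -0.81 and 1.28.

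Whether a mutant effect changed between stages was tested for each gene. For J2KO, 5 of the 8 passed, where 54.1% of all genes did: Phc1 at -0.53 ± 0.05, Phc3 at -0.38 ± 0.10 and Scml2 at -0.85 ± 0.13 had an effect lower in EpiLCs than in ESCs, and L3mbtl2 at 0.46 ± 0.05 and Kdm2b at 0.75 ± 0.05 a higher one. The Phc3 call was lost in a model of all 36 libraries (edgeR adjusted p = 0.32). For TKO, 1 of the 8 passed, L3mbtl2 at -0.35 ± 0.11 (edgeR adjusted p = 0.0458), where 15.3% of genes did, and its call was lost without any 1 of 10 libraries, by RLE (edgeR adjusted p = 0.0571) and with no filter on low counts (edgeR adjusted p = 0.324). For QKO, 1 of the 8 passed, Phc2 as given above, where 16.2% did. Without PclWT EpiLC replicate 1, L3mbtl2 was at -0.30 ± 0.08 in TKO and Kdm2b, which had not passed at 0.99 ± 0.39 in TKO and 1.14 ± 0.39 in QKO, did so, at 0.66 ± 0.08 in TKO (edgeR adjusted p = 8.36e-07) and at 0.74 ± 0.08 in QKO (edgeR adjusted p = 1.35e-07). Kdm2b also passed with all libraries kept when no filter on low counts was used or all 36 libraries were in 1 model, at 0.99 ± 0.20 and 1.01 ± 0.24 in TKO and at 1.14 ± 0.19 and 1.12 ± 0.24 in QKO, and by DESeq2 in QKO, at 1.11 ± 0.41.

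The other genes of these complexes were counted in 4 lists. Of 9 canonical PRC1 partners (CBX, PCGF and RING proteins), 2 were higher and 7 lower in J2WT EpiLCs than in ESCs (40.0% and 42.3% of all genes), among them Cbx8, which encodes a reader of the PRC2 mark, at -1.63 ± 0.17. In PclWT, 1 was higher and 2 lower (15.4% and 14.7%). In Pcgf2/4 KO EpiLCs, 7 of the 9 were higher and 0 lower (29.6% and 27.4%), among them Cbx8 at 1.70 ± 0.25, while Phc2 was lower. The 9 include Pcgf2 and Bmi1, the genes targeted in that line, whose gene counts do not check its label. In QKO ESCs, 6 were higher and 1 lower (36.5% and 33.4%), with Cbx8 at 1.60 ± 0.16. Of 24 variant PRC1 partners, 15 were higher and 6 lower in J2WT EpiLCs (40.0% and 42.3%), among them Bcor, a KDM2B partner, at 1.38 ± 0.05, and Pcgf1, the PCGF subunit of the KDM2B complex, at -1.31 ± 0.08. PclWT had 4 higher and 5 lower (15.4% and 14.7%), and the stage effect of PclWT minus that of J2WT was -1.64 ± 0.29 for Bcor and 1.28 ± 0.27 for Pcgf1, opposite in sign to the J2WT change. In J2KO ESCs, where Kdm2b was lower, 17 of the 24 were higher and 6 lower (36.7% and 34.1%), and Pcgf1 was lower by -1.07 ± 0.08. Of 10 other SAM or MBT genes only 4 or 5 passed the filter on low counts, and Sfmbt2, the paralogue of Sfmbt1, was lower in J2KO EpiLCs by -1.34 ± 0.06 and lower in QKO than in TKO EpiLCs by -2.14 ± 0.13, while Sfmbt1 was higher in J2KO EpiLCs and had an interval of -0.12 to 0.18 between QKO and TKO EpiLCs. Of the 3 relatives Yy1, Kdm2a and Zfp42, Zfp42, a naive pluripotency gene related to Yy1, was lower in J2WT EpiLCs by -2.71 ± 0.04 and in PclWT EpiLCs by -1.17 ± 0.12. These values passed edgeR's test at an adjusted p under 0.05.

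Over the 12 group means of log2 CPM, which share libraries, controls and depth, the genes with the pattern most like that of Scml2 were H3f3b (Pearson r = 0.979), which encodes histone H3.3, and Mtif2 (0.959). For Phc1 they were Nos3 (0.974) and Mef2b (0.971), for Phc2 Pitpnm2 (0.919) and Bcr (0.910), and for Phc3 Fut9 (0.948) and Itsn2 (0.934). Those for Scmh1 were Cyct (0.963) and Csnk1g3 (0.960), for Sfmbt1 Rtn1 (0.964), for L3mbtl2 Rest (0.919) and for Kdm2b Actn4 (0.856). Among the 8 genes themselves the closest pair was Scmh1 and Sfmbt1 (r = 0.77), followed by Scml2 and Sfmbt1 (0.63), and the most opposed was Phc3 and Scmh1 (-0.71). These correlations are descriptions over 12 points and carry no test.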

How the data were processed

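Poly(A) RNA of ESCs and EpiLCs was sequenced by the authors in 36 libraries made with a NEBNext Ultra kit, which does not mark strand. Per the study's methods, reads were aligned with STAR to Ensembl GRCm38. The files have the layout of STAR's gene counts, in which reads in no gene, in several genes or at several places stand in rows of their own. The deposited values are raw counts per gene and library, without normalization, and the column without strand was used; 23.22% to 30.24% of reads were in no single gene. The GENCODE gene models for GRCm38 gave symbols, positions and lengths and named 55141 of 55401 genes.

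Counts were scaled by TMM, and each comparison was fitted on its own 6 libraries, or 12 for a difference of 2 effects, with edgeR 4.0.16 (R 4.3.3), using its quasi-likelihood test. Genes entered a fit when their mean normalized count there reached 15. P-values were adjusted by Benjamini-Hochberg over all genes tested. A gene passed at an adjusted p under 0.05, and changes over 2-fold were counted separately. SE was derived from the F statistic, and intervals are 1.96 SE to either side. The 8 genes and all lists were chosen with earlier results of these data known, and the contrast of JARID2 loss between backgrounds was added after seeing the data. Named list genes are at most 2 per direction with the largest change over 2-fold, some of which are not reported here, and likeness was Pearson's r over group means with a prior count of 2, among genes whose group means span at least 1. Code was tested on simulated data. Alternatives were DESeq2 1.42.0, RLE size factors, no count filter, 1 model over all 36 libraries, an additive model of both WT lines, 9 WT EpiLC libraries as the Pcgf2/4 KO control, a block for the replicate number, other lengths for the Phc shares and each library left out. Same-numbered PclWT libraries of the 2 stages deviated together from their group means (correlations across genes 0.39, 0.192 and 0.165), so the block is given there; differently numbered replicates 2 and 3 correlated as well (0.172 and 0.204), so it mainly sets replicate 1 apart. In no other comparison did all 3 pairs exceed 0.1. Figures were drawn in Python 3.11.15.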

Additional observations from a re-analysis of the deposited data

Results flagged for a closer look

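Effects that differed between stages, lines or backgrounds by a test of the difference itself are listed here as log2 values from edgeR at an adjusted p under 0.05. Between the WT lines, the stage effect of PclWT minus that of J2WT was 2.18 for Phc2, -0.70 for L3mbtl2 and -1.52 for Kdm2b, and the group that holds PclWT EpiLC replicate 1 enters all 3 values. The J2KO effect in EpiLCs minus that in ESCs was -0.53 for Phc1, -0.38 for Phc3, -0.85 for Scml2, 0.46 for L3mbtl2 and 0.75 for Kdm2b. The same difference was -0.35 for L3mbtl2 in TKO and -1.22 for Phc2 in QKO.

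The effect of QKO against TKO minus that of J2KO against J2WT, a contrast added after the data had been seen, was -1.17 for Phc1, 0.29 for Phc2, -0.90 for Phc3, -4.73 for Scml2, -0.40 for Scmh1, -0.86 for Sfmbt1 and 0.76 for Kdm2b in ESCs. In EpiLCs it was -0.43 for Phc1, -0.36 for Phc2, -0.43 for Phc3, -3.63 for Scml2, -0.56 for Scmh1, -0.57 for Sfmbt1 and -0.35 for L3mbtl2. Background, line and depth cannot be told apart in these values.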

How the results depend on the processing

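Of the log2 fold changes of the 8 genes, 642 kept direction and side of the threshold under the settings other than leaving out a library, 24 newly passed, 26 no longer passed and 12 reversed. With a library left out, 992 kept both, 20 newly passed, 42 no longer passed and 50 reversed. The reversed values did not pass by the main settings except those for J2WT stages, and the cause was not tested. Between stages, the additive model of both WT lines gave 0.00 for Phc2, -0.10 for L3mbtl2 and -0.29 for Kdm2b, where J2WT alone had other signs, and 4 genes passed. For L3mbtl2 between QKO and TKO ESCs, DESeq2 and RLE both gave 0.01 and the model of all libraries 0.00. For Scmh1 in the J2KO effect between stages, DESeq2 and RLE gave 0.02 and the model of all libraries 0.01. With all WT EpiLC libraries as control, Pcgf2/4 KO gave -0.61 for Scmh1 and -0.12 for L3mbtl2 and 0 genes passed (edgeR, against 4; 3 at an unadjusted p under 0.05), while the 4 lost folds were larger, 0.36 for Phc1, -1.42 for Phc2, -1.26 for Scml2 and 0.49 for Kdm2b, and the model of all libraries gave -0.00 for L3mbtl2. That model passed 7 genes in QKO EpiLCs, 1 in QKO against TKO ESCs and 3 each in the TKO and QKO effects between stages. DESeq2 and no count filter passed 2 in the QKO effect between stages, and RLE passed 0 in that of TKO (2 at an unadjusted p under 0.05), where 1 passed by the main settings.

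With the replicate number as a block, 2 genes passed in TKO EpiLCs and 0 in the TKO effect between stages (3 at an unadjusted p under 0.05), where the numbers did not pair the samples, and beside Kdm2b between stages in PclWT the block changed no call in that pairing. The number of genes that passed with a library left out ranged from 2 to 7 between stages in PclWT, 1 to 7 in TKO EpiLCs, 1 to 8 in QKO EpiLCs, 3 to 5 in the stage effect between lines, 0 to 2 in the TKO and 1 to 2 in the QKO effect between stages. The shares of all genes under these and the other settings are not given here, so the counts say nothing about the 8 genes as a set. The ranges of log2 fold changes that turned sign with a library left out were Phc3 -0.73 to 0.11 between stages in PclWT, Phc3 -0.05 to 0.18 in TKO ESCs, Phc2 -0.17 to 0.21, Phc3 -0.27 to 0.53 in TKO EpiLCs, L3mbtl2 -0.06 to 0.01 in QKO ESCs, Phc3 -0.59 to 0.23 in QKO EpiLCs. They were also Scml2 -0.13 to 0.07, L3mbtl2 -0.05 to 0.04 between QKO and TKO in ESCs, Scml2 -0.01 to 0.37, Scmh1 -0.12 to 0.02, Sfmbt1 -0.02 to 0.10, Kdm2b -0.01 to 0.08 between QKO and TKO in EpiLCs, Sfmbt1 -0.15 to 0.02 in Pcgf2/4 KO, Phc3 -0.32 to 0.50, Scml2 -0.08 to 0.16 in the stage effect between WT lines, Scmh1 -0.03 to 0.05, Sfmbt1 -0.08 to 0.06 in the J2KO effect between stages, Phc1 -0.20 to 0.08, Phc3 -0.33 to 0.50, Sfmbt1 -0.20 to 0.06 in the TKO effect between stages, Phc3 -0.23 to 0.62, Scmh1 -0.07 to 0.16 in the QKO effect between stages. The share of Phc1 was 83.8% to 96.4% without division by length. For Scml2, 17 to 25 reads per library in TKO and QKO ESCs limit the precision.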
